A study of Mus musculus with 5 samples.

Results

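A group of 6 genes tied to the circadian clock, Cry2, Nr1d2, Tef, Rora, Tsc22d3 and Tspan4, was measurable in sorted parvalbumin cells of the mouse cerebral cortex. They were chosen by detection: each has a probe whose detection p, which sets a probe against the background of its own array, lay under 0.05 on at least 2 of the 5 arrays. They are 6 of 19057 genes named on the array, and 14 probes carry their names, of which 6 passed, 1 a gene. The other 8 probes were above background on no array.

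The cells came from C57BL/6J mice with a green fluorescent reporter of parvalbumin (PV-GFP), carried by both groups, and parvalbumin marks fast-spiking inhibitory interneurons. WT mice were Clock+/+ (3 samples, 61, 64 and 64 days old) and KO mice were Clock-/- (2 samples numbered 1 and 3, 61 and 60 days old). Every sample has the same zeitgeber time, 16 h after lights-on, so the data hold 1 point of the daily cycle and no rhythm. The labels name no Cre and no driver of the reporter, and do not say whether each sample is 1 mouse, so the p-values given here cover only differences among the samples, which may be technical.

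In the mouse clock, CLOCK pairs with BMAL1 (gene Arntl) and activates genes through E-box elements. Among these genes are Per and Cry, whose proteins repress the pair, and the REV-ERB receptors, which repress Arntl through elements that the activating ROR receptors share. The D-box factors, Tef among them, carry the rhythm to output genes.

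Few probes stood above background on any array. Between 1978 (KO replicate 3) and 3671 (WT replicate 1) probes were detected, against 2264 expected by chance on an array without signal, and 3347 of 45281 probes (7.39%) passed the filter and were tested. KO replicate 3 stood apart: it lay under that chance count, its mean signal above background was 40.0 intensity units against 92.3 to 109 on the other arrays, and its correlation with them across tested probes was 0.751 to 0.827, against 0.860 to 0.924 among the others. Values are therefore given by array. Of 12 GABA neuron markers on the array 5 were tested and 6 were below background on all arrays. Of 14 parvalbumin interneuron markers 6 were tested and 5 were below background on all arrays. Among those tested, Gad1, Gad2 and Slc32a1 were detected on all 5 arrays and Pvalb on 4, not on KO replicate 3. The markers of microglia (0 of 10 genes on the array), excitatory neurons (0 of 13) and endothelial and mural cells (0 of 10) had no tested probe. Astrocytes (Aldh1l1, 1 of 10), the oligodendrocyte lineage (Mbp, 1 of 10), blood (Hbb-bt, 1 of 6) and other interneurons (Vip and Cnr1, 2 of 10) had few.

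The loop that surrounds these 6 genes was almost wholly below background. Of 21 genes in the lists of clock activators, clock repressors, REV-ERB and ROR receptors and D-box factors, 19 had a named probe and 4 were tested: Cry2, Nr1d2, Rora and Tef. The other 15 had 26 probes, and 14 of these genes were above background on no array, WT included. Clock, the deleted gene, was among them, with a lowest detection p of 0.338 over its 3 probes and 5 arrays, so it does not check the genotype. Its partner gene Arntl reached 0.646, Cry1 0.438, Per2 0.192, Per1 0.154, Nr1d1 0.146 and Dbp 0.129. The gene nearest to the limit from outside was Per3, a repressor gene, at 0.0459 on WT replicate 3 and at least 0.0588 on the other arrays. The gene nearest to it from inside was Tspan4, with 0.0288 to 0.0320 on 3 arrays, 0.0556 on KO replicate 1 and 0.126 on WT replicate 1.

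**Figure D1:**
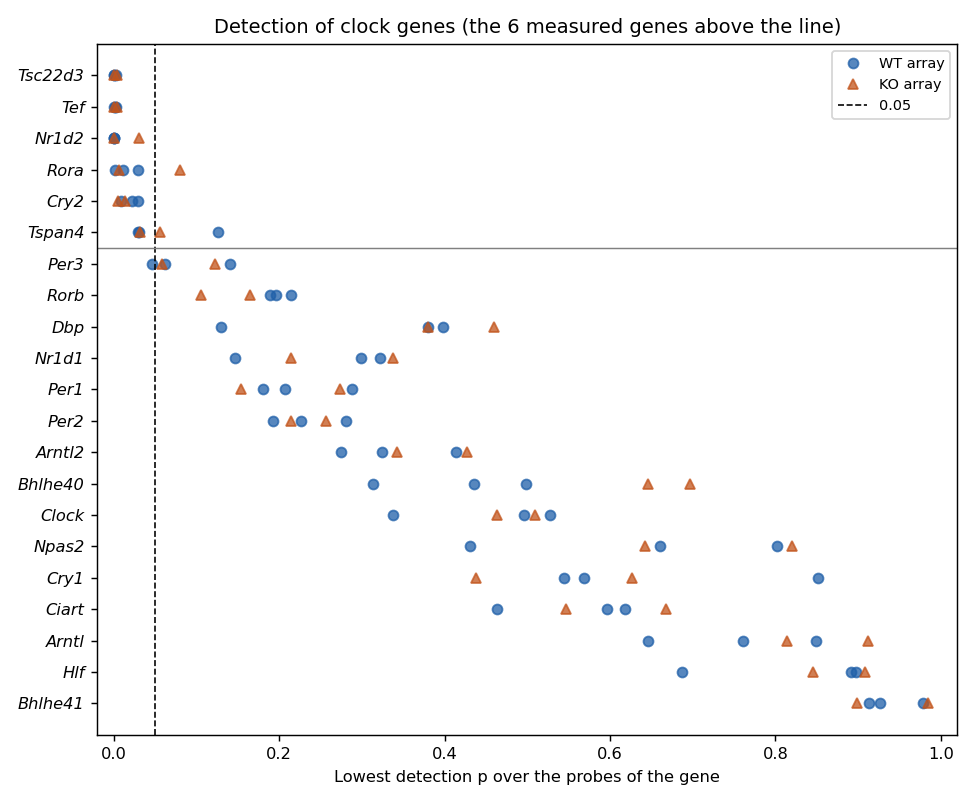
Lowest detection p (x axis) over the probes of each clock gene (y axis) on each of the 5 arrays, circles for WT and triangles for KO, with the limit of 0.05 dashed. The 6 measured genes lie above the grey line, and of the 15 genes under it Per3 alone crosses the limit, on 1 array at 0.0459.

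The start regions of the 6 genes show which of them carry letters of the clock's elements near a RefSeq transcript start. All 6 matched the RefSeq promoter table (GRCm38.p6), with 10 windows of 250 bases before to 50 after a start, and 4 motifs were searched on both strands: the E-box CACGTG, which reads the same on either strand, the half-site AGGTCA of REV-ERB and ROR, the D-box TTANGNAA, and the glucocorticoid element, read as GNACA and TGTNC with 3 bases of any kind between them. The E-box letters stood in 3 of the 10 windows, both of Tef and 1 of Tspan4, and in 7.15% of all 32851 windows. The half-site stood in 1, that of Nr1d2, and in 16.3% of all. Neither of the other motifs was found in these windows, and they occur in 11.5% and 0.475% of all. The 4 windows that hold a motif are printed with the motif in capitals. They hold the letters of the E-box, the element bound by the deleted factor, or of the half-site. They lie at chr15:81802423-81802722 (Tef, plus strand, E-box 127 bases before the start), chr15:81811164-81811463 (Tef, plus strand, 138 bases before), chr7:141476130-141476429 (Tspan4, plus strand, 51 bases before) and chr14:18239057-18239356 (Nr1d2, minus strand, half-site 77 bases before).
Tef upstream start: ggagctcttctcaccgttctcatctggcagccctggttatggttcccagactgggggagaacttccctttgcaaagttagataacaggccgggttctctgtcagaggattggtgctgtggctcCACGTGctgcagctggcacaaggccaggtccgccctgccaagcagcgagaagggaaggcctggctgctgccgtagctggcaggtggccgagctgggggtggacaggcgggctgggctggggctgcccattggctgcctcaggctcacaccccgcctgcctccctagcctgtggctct
Tef downstream start: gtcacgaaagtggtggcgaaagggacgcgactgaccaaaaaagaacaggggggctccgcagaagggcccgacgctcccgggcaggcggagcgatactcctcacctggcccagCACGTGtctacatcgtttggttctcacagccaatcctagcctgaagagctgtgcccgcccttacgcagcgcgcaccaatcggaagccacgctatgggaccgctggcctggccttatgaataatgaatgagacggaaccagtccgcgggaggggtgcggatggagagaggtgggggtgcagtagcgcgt
Tspan4 downstream start: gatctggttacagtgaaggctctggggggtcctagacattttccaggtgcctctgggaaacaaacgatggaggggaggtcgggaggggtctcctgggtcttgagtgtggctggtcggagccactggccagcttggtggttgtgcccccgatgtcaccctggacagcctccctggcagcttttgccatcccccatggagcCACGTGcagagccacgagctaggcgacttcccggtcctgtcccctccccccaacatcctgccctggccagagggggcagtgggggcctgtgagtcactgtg
Nr1d2 start: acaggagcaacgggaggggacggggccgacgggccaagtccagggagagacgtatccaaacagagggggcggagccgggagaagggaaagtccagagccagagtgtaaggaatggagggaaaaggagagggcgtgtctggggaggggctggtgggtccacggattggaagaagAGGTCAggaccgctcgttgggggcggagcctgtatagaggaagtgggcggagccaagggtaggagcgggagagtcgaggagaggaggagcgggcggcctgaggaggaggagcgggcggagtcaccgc
A match is a run of letters, not a measured binding site. The windows of Cry2 (chr2:92434020-92434319, minus strand) and Rora (chr9:68653536-68653835, plus strand) held none of the 4 motifs, and neither did the 3 windows of Tsc22d3 on chromosome X or the other window of Tspan4.

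The comparison of KO with WT asks whether these genes differ without Clock. None of the 6 passed limma's test at an adjusted p of 0.05, and 0% of all 3347 tested probes did, with 0.801 as the smallest adjusted p over all probes. At an unadjusted p under 0.05 there were 2 of the 6, Cry2 and Nr1d2, beside 5.92% of all tested probes (198). Of these, Cry2 was higher in KO, as were 3.02% of tested probes, and Nr1d2 lower, as were 2.9%. Differences of 3 were above 0 and of 3 below, with a median of -0.055 on the log2 scale, against 0.0048 over all tested probes. The KO arrays lay above all WT arrays for 1 gene (11.2% of tested probes do) and below all of them for 1 (10.6%), so that 2 genes did not overlap (21.8% of tested probes) and 4 did. With 3 arrays against 2, there are 10 splits, and the exact permutation test, two-sided, cannot give a p under 0.1.

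**Figure D2:**
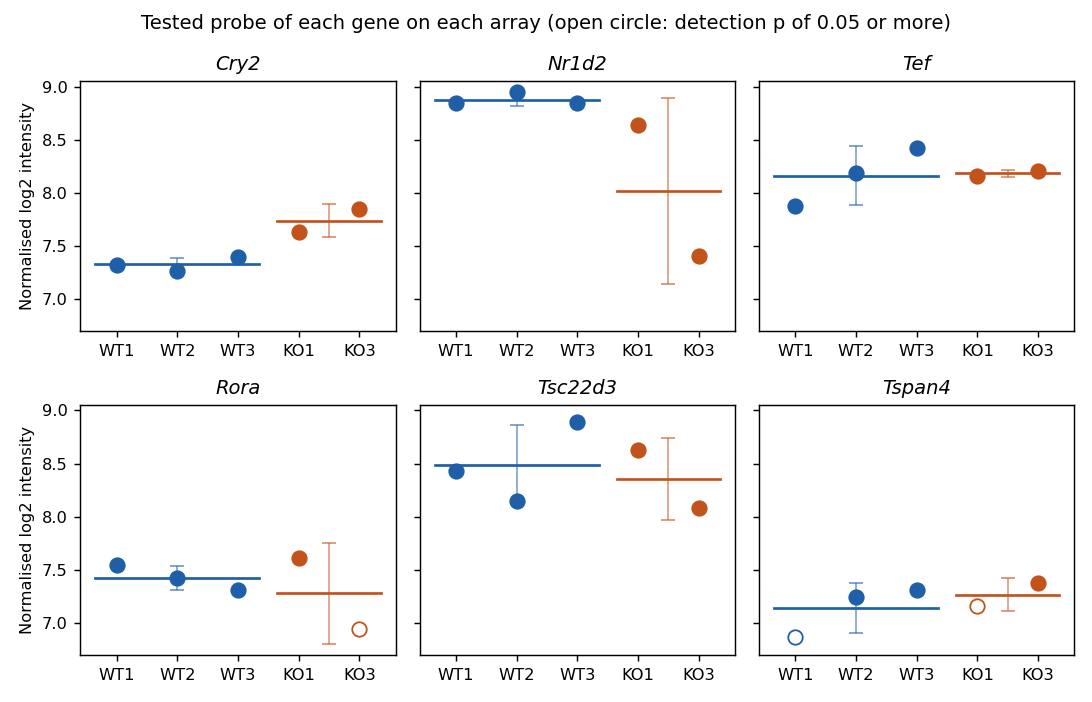
Normalised log2 intensity (y axis) of the tested probe of each gene on the 5 arrays (x axis), with the group mean as a line and the SD as a bar (3 WT, 2 KO). Cry2 lies higher on both KO arrays, Nr1d2 lower on both and lowest on KO replicate 3, and the other 4 genes overlap.

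Cry2, the only gene tested of 8 clock repressors on the array, had higher values in KO. CRY2 binds the CLOCK and BMAL1 pair and blocks it. On probe ILMN_2665681 its normalised log2 intensity was 7.32, 7.27 and 7.39 over the WT replicates in order, then 7.63 for KO replicate 1 and 7.85 for KO replicate 3. The groups did not overlap, and the WT values lay closer together than the KO values did. WT averaged 7.33 ± 0.062 (SD, n = 3), and KO averaged 7.74 ± 0.16 (SD, n = 2). The difference of 0.41 ± 0.16 (SE, log2), a ratio of 1.33, had an unadjusted 95% interval of 0.037 to 0.79 and a limma adjusted p of 0.801. A difference this high or higher was found in 201 of 3347 tested probes, its own included.

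The Cry2 difference was not present in raw intensity over background. Divided by the mean background of the array, raw intensity was 1.78, 1.67 and 1.70 in WT and 1.72 and 1.62 in KO, so on this scale the groups overlapped and KO replicate 3 was lowest. On the authors' processed intensities, which share 1 distribution over the arrays, Cry2 read 1007 to 1132 in WT, 1307 on KO replicate 1 and 1425 on KO replicate 3, again without overlap. With arrays scaled to 1 median instead, the difference was -0.35, but the median difference over all tested probes was then -0.39, and Cry2 lay 0.039 above it. It was 0.14 without background correction and 0.086 after cyclic loess. Without WT replicate 1 and with the other arrays normalised anew it was 0.13, and with the values as first normalised 0.41. The second Cry2 probe was above background on no array (detection p 0.220 to 0.361).

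**Figure D3:**
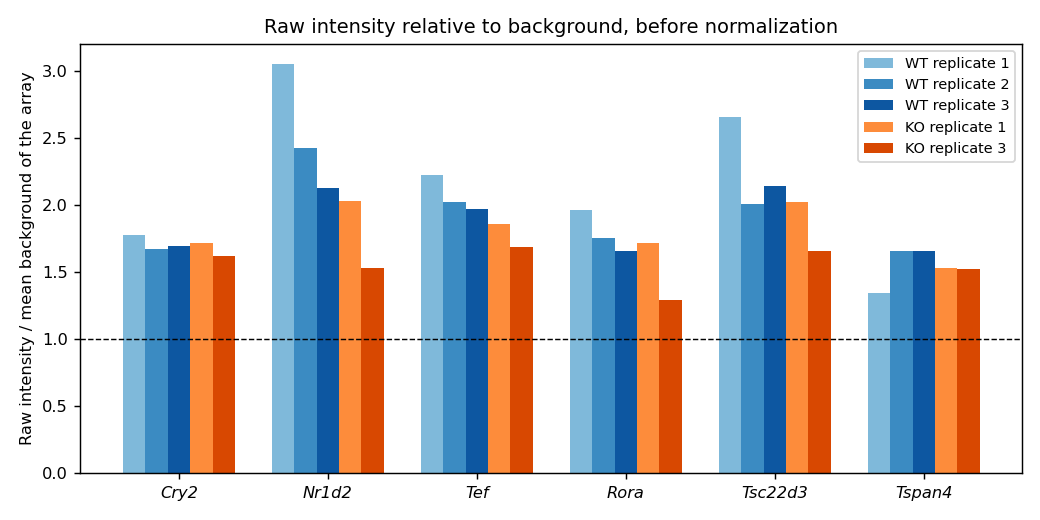
Raw intensity of each tested probe divided by the mean background of its array (y axis, bars from 0, dashed line at 1), for the 3 WT arrays in blue and the 2 KO arrays in orange. Cry2 spans 1.62 to 1.78 with the groups overlapping, while Nr1d2 runs from 3.05 on WT replicate 1 to 1.53 on KO replicate 3.

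Among the nuclear receptors, Nr1d2 had lower values in KO, most of all on 1 array. It encodes REV-ERB beta, a repressor of Arntl and a partner in function of REV-ERB alpha (gene Nr1d1, below background here). Probe ILMN_2798993 of Nr1d2 read 8.84, 8.95 and 8.84 on the WT arrays, 8.64 on KO replicate 1 and 7.40 on KO replicate 3. Both KO arrays lay under all 3 WT arrays, KO replicate 3 far more so than KO replicate 1. WT averaged 8.88 ± 0.059 (SD, n = 3), and KO averaged 8.02 ± 0.87 (SD, n = 2). The difference of -0.86 ± 0.33 (SE, log2), a ratio of 0.552, had an unadjusted 95% interval of -1.64 to -0.071 and a limma adjusted p of 0.801. A difference as far or further in this direction was found in 7 of 3347 tested probes, its own included.

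On the scale of raw intensity over mean background both KO arrays were lowest, KO replicate 1 only just. Nr1d2 there read 3.05, 2.42 and 2.12 in WT, 2.03 on KO replicate 1 and 1.53 on KO replicate 3, where the detection p was 0.0310. In raw intensity alone KO replicate 1 (3970.5) lay above WT replicate 1 (3340.4), and in SDs above background KO replicate 1 (3.74) lay above WT replicate 3 (3.68), so the groups overlapped on these scales. The authors' processed intensities were 2176 to 2279 in WT, 1996 on KO replicate 1 and 1138 on KO replicate 3. Taken singly, KO replicate 1 differed from the WT mean by -0.24 and KO replicate 3 by -1.48. Without KO replicate 3 and with the rest normalised anew the difference was -0.25, and without KO replicate 1 it was -1.61. Each of these fits leaves 1 KO array, which is assumed to vary as WT does, so only the difference is given. The other leave-outs, of 1 WT replicate each, gave -0.44 to -0.96. The difference stayed below 0 in all 25 alternatives run for it, from -1.61 to -0.23 (after cyclic loess). Those of filter, variance model and mean over tested probes leave the difference as it was, so their sign was fixed. Array weights, the replicate block and the leave-outs on values as first normalised could not turn it either. In those values both KO arrays lie under all WT arrays. The second Nr1d2 probe was above background on no array (detection p 0.154 to 0.546). Its lowest raw value relative to background was on KO replicate 3 (0.920, against 1.13 to 1.29 on the others), but below background such an order cannot be read.

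Most measured markers of the sorted cells also read lowest on KO replicate 3. Of 14 parvalbumin interneuron markers on the array, 6 were tested, and the summed linear level of their brightest probes was 2222 to 2614 in WT, 2079 on KO replicate 1 and 1484 on KO replicate 3. KO replicate 3 was the lowest array for 5 of the 6 and the highest for Vamp1, a synaptic vesicle protein gene (8.55, against 7.55 to 7.99 on the others). The share of all tested probes that read lowest on KO replicate 3 was not counted. This count and that of the GABA neuron markers below thus do not set the markers apart. Of the 14 genes, 6 to 9 were above background on the WT arrays, 6 on KO replicate 1 and 3 on KO replicate 3. The summed level of 5 tested GABA neuron markers was 2150 to 2602 in WT, 2245 on KO replicate 1 and 1520 on KO replicate 3. KO replicate 3 was lowest for 4 of these, Satb1 included, and KO replicate 1 for Gad2 (8.96, against 8.98 on KO replicate 3). Satb1 was above background on 2 WT arrays and on no KO array, so that it passed the filter through WT alone. Its KO values, also in the sum, lay under the detection limit. Pvalb itself read 8.79 to 9.18 in WT, 8.22 on KO replicate 1 and 7.19 on KO replicate 3, where it was not above background. The part of these markers and of the weak signal of KO replicate 3 in the Nr1d2 values was not tested. In such bulk samples, fewer cells of a type and less RNA per cell cannot be told apart.

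The genes whose profile over the 5 arrays lay closest to that of Nr1d2 had the same low value on KO replicate 3. Nr1d2 was taken as the measured clock gene with the largest SD over the arrays, and closeness is the root-mean-square difference of log2 values after each gene's mean is removed, whose median over tested probes was 0.59. Eno2, the neuronal enolase of glycolysis, was closest at 0.057, followed by the nucleotidase gene Entpd4 (0.094), the calcineurin regulator gene Rcan2 (0.11), Pcp4l1 (0.11) and 1 probe of the potassium channel gene Kcnc2 (0.11). Eno2 read 8.88 to 9.05 in WT, 8.60 on KO replicate 1 and 7.39 on KO replicate 3. Its difference was -0.96 (limma adjusted p 0.801). The differences of the other 4 were -0.86, -0.69, -0.77 and -0.72 in that order, and 2 further Kcnc2 probes differed by -0.13 and -0.37. The low value of KO replicate 3 sets this ranking, which says nothing on shared control.

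**Figure D4:**
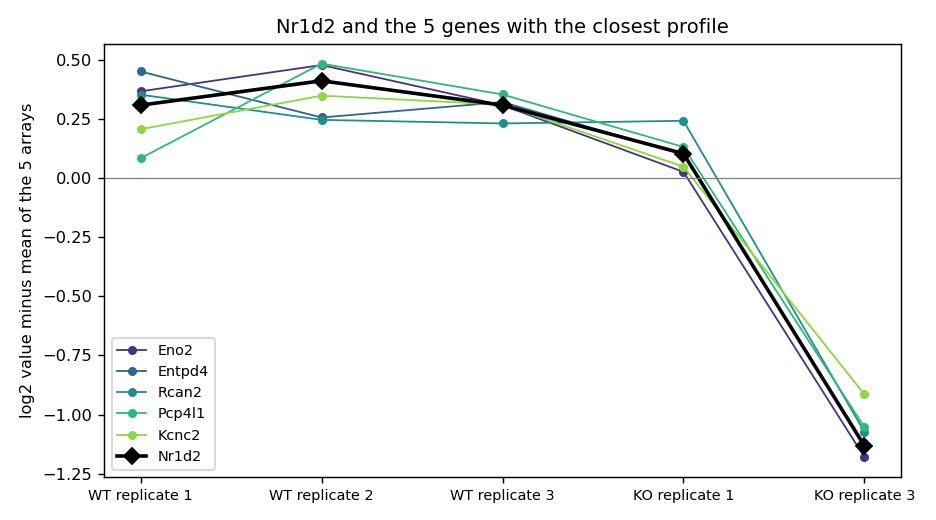
Log2 value minus the mean of the 5 arrays (y axis) for Nr1d2 (black) and the 5 genes closest to it, on each array (x axis). All 6 lines are above 0 on the WT arrays and lowest on KO replicate 3.

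Rora encodes a ROR receptor, an activator on the elements that REV-ERB represses. Its tested probe, ILMN_1243741, read 7.54, 7.42 and 7.31 on the WT arrays and 7.61 and 6.94 on KO replicates 1 and 3. KO replicate 1 was the highest of all 5 arrays and KO replicate 3 the lowest, where the probe was not above background (detection p 0.139). The difference was -0.15 ± 0.23 (SE, log2), with a 95% interval of -0.68 to 0.38 and a limma adjusted p of 0.885. Without KO replicate 3 it was 0.20 with the rest normalised anew. The second Rora probe, not above background on any array, read highest on KO replicate 3 (7.09, detection p 0.0801) and 6.87 to 6.99 on the others. The 2 probes thus placed KO replicate 3 at opposite ends, neither above background there. Of the other receptors, Nr1d1 and Rorb had no array above background.

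Tef, a D-box factor, had the smallest difference of the 6. Its probe ILMN_2676052 read 7.87, 8.19 and 8.43 on the WT arrays and 8.16 and 8.21 on the KO arrays. Both KO values lay inside the WT range and close to its middle. The difference was 0.022 ± 0.20 (SE, log2), with a 95% interval of -0.45 to 0.49 and a limma adjusted p of 0.986. Raw intensity over background was 1.97 to 2.23 in WT and 1.86 and 1.68 in KO, and there KO was below all WT arrays. Under median scaling the Tef difference was -0.85, or -0.46 relative to the median of all tested probes. The second Tef probe, annotated to another transcript, lay under the mean background on every array (ratio 0.495 to 0.687), and the D-box genes Dbp and Hlf were above background on none.

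Tsc22d3 encodes GILZ, a leucine zipper protein induced by glucocorticoids and known as a rhythmic transcript in several mouse tissues. Its tested probe, ILMN_3150811, read 8.43, 8.15 and 8.89 on the WT arrays, then 8.63 on KO replicate 1 and 8.09 on KO replicate 3. The 2 groups overlapped, and the WT replicates spread over a wider range than the difference between the groups. The difference was -0.13 ± 0.27 (SE, log2), with a 95% interval of -0.76 to 0.50 and a limma adjusted p of 0.921. Its sign turned without WT replicate 3 (0.072) or KO replicate 3 (0.15), and under median scaling it was -1.09, or -0.69 relative to the median of all tested probes. The other 2 probes, each annotated to another transcript record, were above background on no array, with detection p from 0.262 to 0.937.

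Other glucocorticoid-induced genes and members of the TSC22 family were mostly not measurable. Of 20 glucocorticoid-induced genes on the array 2 were tested, Tsc22d3 and the metallothionein gene Mt2, and 0 passed in either direction. Mt2 was above background on all 3 WT arrays and on no KO array, so that it passed the filter through WT alone, and both KO values lay under the detection limit. It read 7.10, 7.36 and 7.48 in WT and 7.09 and 7.10 in KO, and the groups overlapped. Fkbp5, Klf9 and Zbtb16 had no array above background, and Sgk1 and Dusp1 had 1. In the TSC22 family Tsc22d2 differed by 0.20 (limma adjusted p 0.827) and the other 2 genes were below background.

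Tspan4 encodes a tetraspanin, a membrane protein known from migrasomes of migrating cells. Its probe ILMN_2962584 read 6.87, 7.24 and 7.31 on the WT arrays and 7.16 and 7.37 on the KO arrays. It was above background on WT replicates 2 and 3 and KO replicate 3 only, so its values are the least certain of the 6. The difference was 0.12 ± 0.19 (SE, log2), with a 95% interval of -0.33 to 0.58 and a limma adjusted p of 0.886, and it was -0.011 without WT replicate 1, the lowest array. The other 2 Tspan4 probes were above background on no array.

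Of 26 tetraspanin genes on the array, 6 were tested and 0 passed in either direction, with a median difference of 0.018. Besides Tspan4 these were Tspan3 (-0.35), Tspan5 (-0.41), Tspan11 (0.075), Tspan15 (-0.039) and Cd63 (0.19), a marker of late endosomes. For each of the 6 the KO arrays overlapped the WT arrays.

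**Figure D5:**
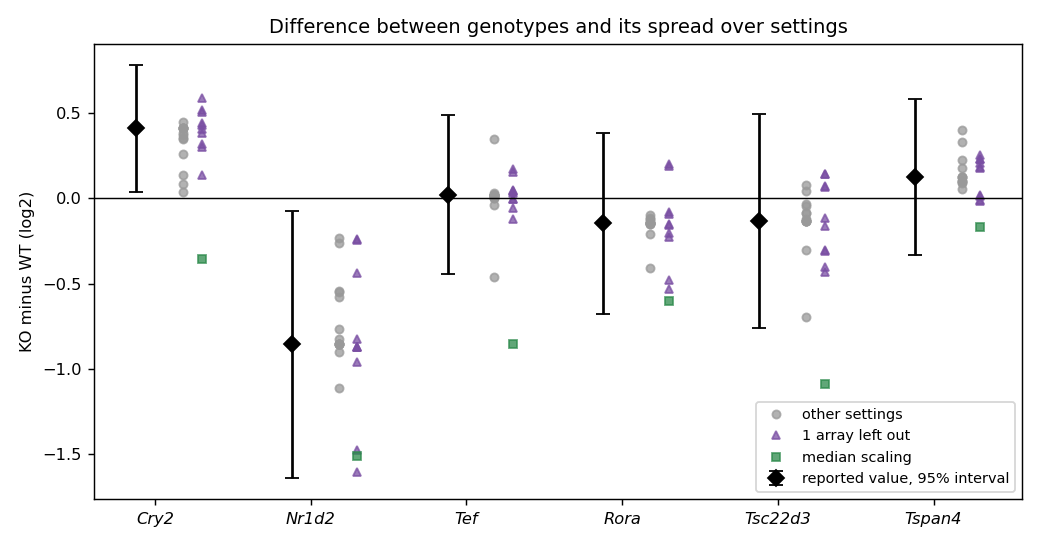
KO minus WT difference in log2 intensity (y axis) of each gene, with its unadjusted 95% interval (black), beside the values with 1 array left out (triangles), under median scaling (squares) and under the other settings (grey). Nr1d2 stays below 0 throughout, from -1.61 to -0.23, and each of the other genes has values on both sides of 0.

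Enzymes that modify clock proteins are a further list of the pathway, and several of them were measured. Of 14 on the array 5 were tested and 0 passed in either direction. Of the 5, 2 (Usp7 and Fbxw11) were above background in WT alone, so no median or count by direction is given. Gsk3b, a kinase that phosphorylates clock proteins including CRY2, read 7.76, 7.93 and 8.43 in WT and 7.60 and 7.26 in KO. Its probe was above background on 4 arrays, not on KO replicate 3, which was the lowest. The groups did not overlap, and the difference was -0.61 ± 0.24 (SE, log2; unadjusted p 0.0376, limma adjusted p 0.801). Usp7, a deubiquitinase that acts on CRY proteins, was above background on all WT arrays and no KO array, and so passed the filter through WT alone. It read 7.30 to 7.36 in WT, and its KO values of 7.15 and 7.02 lay under the detection limit. Prkaa1, the AMPK catalytic subunit gene, differed by 0.13. The phosphatase gene Ppp1cb differed by -0.040 and -0.37 on its 2 probes. Fbxw11, a ubiquitin ligase subunit gene, was below background on both KO arrays and on WT replicate 3, and no bound could be given. Its lowest value was on WT replicate 3 (6.88, against 7.04 and 6.99 on KO replicates 1 and 3). The casein kinase genes Csnk1d and Csnk1e had no array above background.

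Cofactors and targets of the receptors gave no tested gene. Of 8 REV-ERB and ROR cofactor genes on the array 0 were tested, and Ppargc1a alone was above background on 1 array. Of 6 genes listed as repressed by REV-ERB 0 were tested, so the low Nr1d2 values have no measured target beside them. Of 21 clock output genes on the array 4 were tested (Tef, Nr1d2, Tsc22d3 and Tspan4). All 4 are among the 6 genes, which were chosen by detection, so the list adds no separate result. Their median difference was -0.055, the same as for the 6, and 0 passed in either direction.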

How the data were processed

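Total RNA of sorted parvalbumin cells was amplified and biotin-labelled with NuGEN kits, per the labels' protocols, and read on single-colour Illumina arrays. The authors deposited raw, unnormalised intensity values of 45281 probes, each with its detection p-value, per the file headers, and a second table of processed intensity values on a linear scale, background-subtracted and quantile normalised as far as the values show. GenomeStudio is named in the submitters' processing notes, with no version. Gene names came from the supplied platform table (34885 probes with 1 symbol, 18 with several left unnamed, 10378 with none), updated through Entrez numbers for 34807 probes.

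The deposited raw intensities were taken through neqc of limma 3.58.1 (R 4.3.3), which corrects background by normexp, adds an offset of 16, normalises by quantiles and takes log2. The linear models (lmFit, then eBayes) were fitted on the 3347 probes detected at p under 0.05 on 2 arrays or more. Their two-sided p-values were adjusted over those probes by the Benjamini-Hochberg method, and the code was tested on simulated data. A gene of a list is given by its brightest tested probe. A group with no array above background gives only a bound, and a gene above background in 1 group alone is described without a test. The number of arrays limits the precision. The members and lists were chosen with earlier results of these data known. Named were all probes of the 6 genes, the tested genes of the clock, TSC22 and tetraspanin lists, up to 3 genes of other pathway lists, the sorting markers and the 5 genes closest to Nr1d2. Genes named beyond these were chosen after their values were seen. Alternatives covered background, scaling, offset, filter, variance model, weights, block, age, threshold and each array left out.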

Additional observations from a re-analysis of the deposited data

How the results depend on the processing

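No count at an adjusted p under 0.05 or 0.1 moved from 0 of all probes, of the 6 genes or of the clock lists, except without KO replicate 1, where 27 probes passed (1 of the 6 genes and of the clock lists, Nr1d2), or 48 and again 1 with the values as normalised on all arrays, an alternative chosen after seeing the data. Over the leave-outs the counts thus ranged from 0 to 27 or 48 and from 0 to 1. The fits without KO replicate 1 leave KO replicate 3 as the only KO array, the array under the chance detection count. It is assumed to vary as WT does. The probes passing there, Nr1d2 included, thus cannot tell a KO difference from the deviation of that array. With all arrays, taking unadjusted p under 0.05 gave 198 probes (5.92% of those tested), 2 of the 6 genes and 3 of the clock lists (Cry2, Nr1d2 and Gsk3b). The clock lists counted here are all pathway lists, glucocorticoid-induced, TSC22 and tetraspanin genes included. Nr1d2 kept its sign in 25 of 25 alternatives. Some of these, of filter, variance model and mean over tested probes, cannot change a difference, here and for the other genes. For Nr1d2 and Cry2, whose groups do not overlap, array weights, block and leave-outs on values as first normalised cannot turn the sign. Cry2 turned only under median scaling (-0.35), 1 of 25. Tef turned under median scaling (-0.85, and -0.46 relative to the median of all probes), cyclic loess (-0.036), without WT replicate 1 (-0.057, or -0.12 as first normalised) and without KO replicate 3 (-0.0012 or -0.0020), its leave-outs reaching 0.17, and was 0.35 with age. Rora turned without KO replicate 3 (0.20 or 0.19), its leave-outs reaching -0.53, and was -0.60 under median scaling and -0.41 on the authors' values. Tsc22d3 turned with array weights (0.077), age as a covariate (0.045), without WT replicate 3 (0.072 or 0.069) and without KO replicate 3 (0.15 or 0.14), its leave-outs reaching -0.43, and was -1.09 under median scaling (-0.69 relative to the median of all probes). Tspan4 turned under median scaling (-0.17) and without WT replicate 1 (-0.011 or -0.012), and was 0.40 with age and 0.33 on the authors' values. The cause was not tested. With quantile normalization after log2, added after seeing the data, the Nr1d2 difference was -0.54 and that of Cry2 0.26. Unadjusted calls split into 101 higher and 97 lower. The split was 62 to 123 with the authors' values, 73 to 131 when background was not corrected, 0 to 23 under median scaling, 3 to 3 after cyclic loess, and 116 to 164 with array weights. The replicate block called 0 probes, with Nr1d2 at -0.82 and Cry2 at 0.38. Same-numbered arrays share only a number, and their deviations from the group means correlated at 0.20 and 0.13 over 2 pairs. With 2 KO arrays the KO deviations mirror each other (correlation -1), so these are not 2 separate checks of pairing. Signal near background limits every gene here: Tspan4 and Rora were above it on 3 and 4 arrays.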
